A study of Macaca mulatta with 30 samples.

Results

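The genes described here are 10 components of the machinery that delivers secretory granules to the cell surface and fuses them with it: the small GTPases RAB3D, RAB26, RAB27A and RAB27B, the RAB27-binding synaptotagmin-like proteins SYTL1 and SYTL2, and the SNARE proteins VAMP2, VAMP8, STX3 and SNAP23. They were chosen by name, with earlier results of these data known, and all 10 were found among the 21292 genes of the deposited table. Their transcript levels were measured by RNA sequencing in liver, pancreas and 3 salivary glands (sublingual, submandibular and parotid) of 6 rhesus macaques (Macaca mulatta). Animals 1 to 4 were female and animals 5 and 6 male, each animal gave 1 library per tissue, and every group therefore holds 6 libraries (30 in all). The tissues were flash frozen and untreated as far as the labels say, and age and strain are not given in the sources used here. The study was designed to compare amylase expression between tissues within an animal. The same within-animal comparison is made here for the granule machinery.

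Acinar cells of the salivary glands and pancreas store digestive enzymes, mucins and other secreted proteins in granules and release them when stimulated. RAB GTPases on the granule membrane switch between a GDP-bound and a GTP-bound state and, in the latter, recruit effectors that move, tether and dock the granule. Fusion is then driven by SNARE proteins, a VAMP on the granule pairing with a syntaxin (such as STX3) and SNAP23 on the target membrane. Hepatocytes secrete plasma proteins continuously and do not keep such a store, so liver is the tissue here without classical regulated granules.

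Levels are in TPM, a measure of transcript number that is corrected for transcript length and scaled to a fixed total in every library, so levels of different genes can be compared within a library. Differences between tissues are on the scale of log2(TPM + 1), from a limma fit to all 30 libraries with animal as a block, and p-values were adjusted by the Benjamini-Hochberg method over 13550 genes, with a threshold of 0.05. All 10 members passed the filter on low values (at least 1 TPM in at least 6 libraries). Because TPM are shares of a fixed total, secreted-protein transcripts that fill a library lower all other values in it. The 10 most abundant genes took a median of 23.1% of a liver library, 46.1% of a pancreas one, 37.3% of a sublingual one, 75.6% of a submandibular one and 79.6% of a parotid one. Each difference was therefore also computed after trimmed-mean scaling and after quantile normalisation, which bring the median difference of all genes from between -0.84 and 0.23 to between -0.01 and 0.05, and to between -0.03 and 0.10. In whole tissue, fewer cells of a type and less RNA per cell cannot be told apart.

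Libraries of 4 tissue samples stood apart in marker genes. Among the pancreas libraries, 11 pancreatic acinar markers had a median of 8698 to 32560 TPM in 5 animals but of 279 TPM in animal 4. Among the submandibular libraries, 9 salivary acinar markers had a median of 7690 to 12630 TPM in 5 animals but of 112 TPM in animal 4. In liver, the same salivary markers had medians of 175 to 237 TPM and the pancreatic acinar markers of 107 to 406 TPM. Both animal 4 values thus lay within or below the liver ranges. Within their tissues, all 5 adipocyte markers were highest in these 2 libraries of animal 4. Their median was 1338 TPM in the pancreas library and 713 TPM in the submandibular one, against at most 88.8 TPM in any other library. Muscle markers (8 genes of skeletal muscle) reached a median of 10718 TPM in the parotid of animal 6 and of 2717 TPM in the sublingual gland of animal 5. Animal 1 had 912 TPM in parotid and 1133 TPM in sublingual gland, and no other library exceeded 59.7 TPM. In the sublingual gland the secreted-protein markers were also uneven, with medians of 1478 to 4500 TPM in 4 animals, 361 TPM in animal 1 and 202 TPM in animal 4. Liver libraries carried their hepatocyte markers at medians of 9536 to 13991 TPM. Every call below was also computed without the 4 libraries named first (pancreas and submandibular gland of animal 4, parotid of animal 6, sublingual gland of animal 5), a choice completed after the data had been seen. Leaving out the sublingual libraries of animals 1 and 4 was added later still, and is reported where it changed a call or where their values stood apart.

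**Figure D1:**
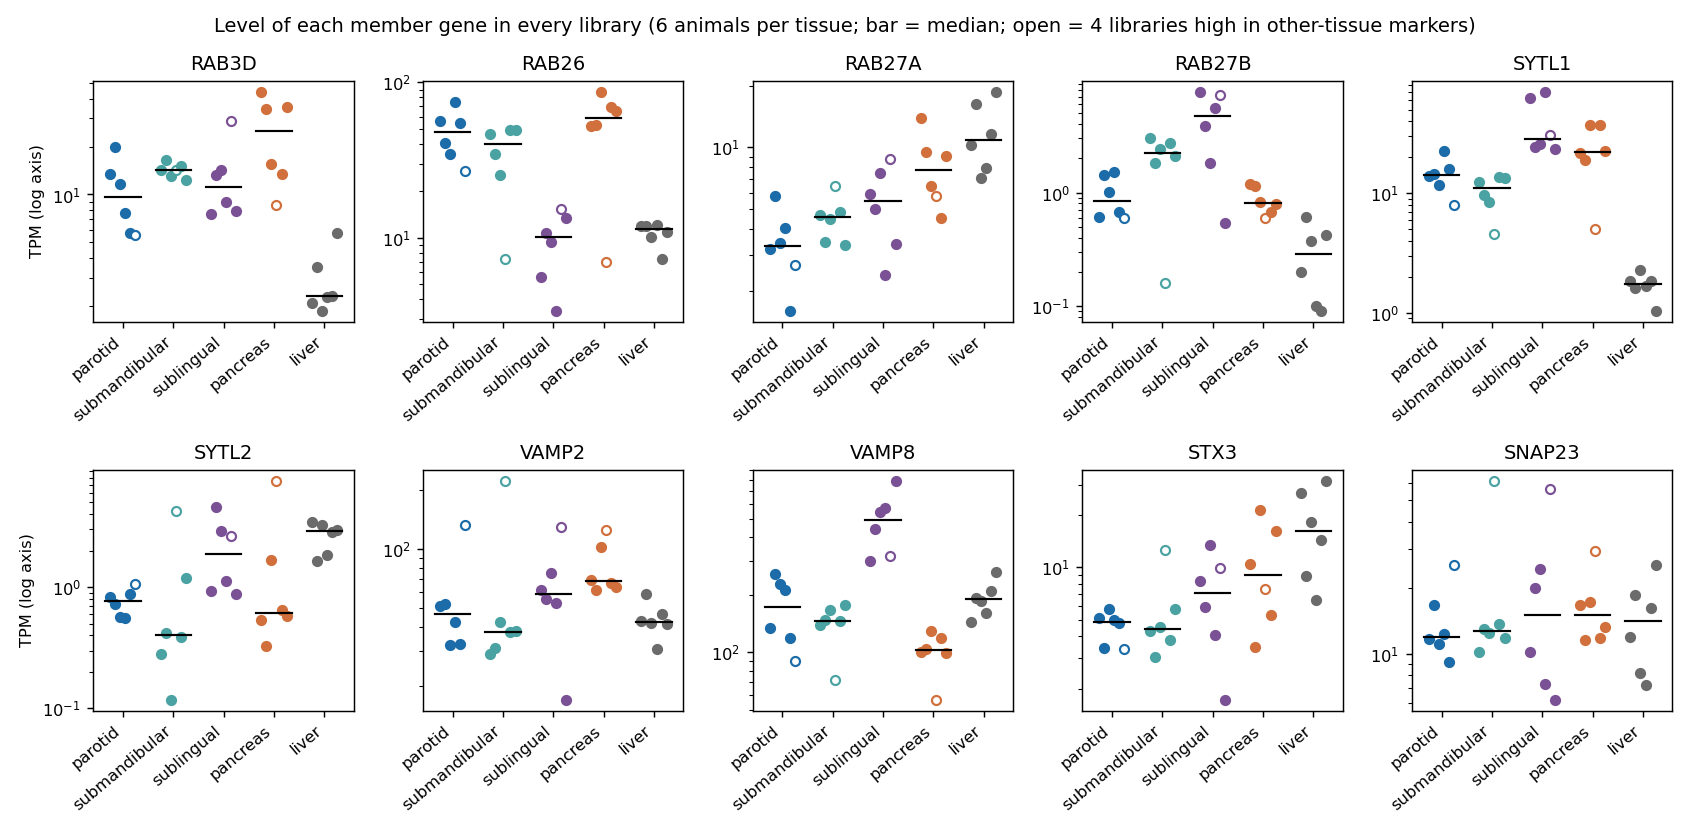
TPM of each of the 10 genes (log axis) in every library of the 5 tissues. Each point is 1 animal, the bar is the median, and open points are the 4 libraries high in markers of fat or muscle. RAB26 was high in parotid, submandibular gland and pancreas, VAMP8 in sublingual gland, and RAB3D and SYTL1 were lowest in liver.

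RAB26 was high in parotid, submandibular gland and pancreas and low in sublingual gland and liver. This GTPase sits on granule membranes of acinar cells and acts in granule maturation. Its lowest, median and highest level was 6.93, 59.3 and 86.8 TPM in pancreas, 7.32, 40.4 and 49.5 TPM in submandibular gland, 27.0, 47.7 and 74.4 TPM in parotid, 3.37, 10.04 and 15.2 TPM in sublingual gland, and 7.31, 11.4 and 12.1 TPM in liver. The lowest submandibular and the lowest pancreas value both belong to animal 4. Every parotid value exceeded every sublingual and every liver value.

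Sublingual RAB26 fell below pancreas by 2.25 on the log2 scale (SE 0.43, limma adjusted p = 4.56e-04, lower in 6 of 6 animals). It was likewise lower than in parotid, where the parotid-minus-sublingual difference was 2.27 (adjusted p = 3.83e-04, 6 of 6 animals), and lower than in submandibular gland (1.69, adjusted p = 0.00586, 6 of 6). Against liver, RAB26 was higher in parotid (2.01, adjusted p = 3.75e-04, 6 of 6 animals), pancreas (2.00, adjusted p = 6.97e-04, 5 of 6) and submandibular gland (1.44, adjusted p = 0.00753, 5 of 6). The sublingual-minus-liver difference was -0.25 and that of parotid minus pancreas 0.02, and neither passed. All 6 RAB26 calls also passed after both scalings and without the 4 libraries, where the sublingual-minus-pancreas difference was -2.88, and without the sublingual libraries of animals 1 and 4 (-1.97). Without animal 1 the submandibular gland no longer differed from the sublingual gland past the threshold (1.46, adjusted p = 0.0685), and without animal 5 it no longer passed against liver (1.205, adjusted p = 0.0558).

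RAB3D, the granule-bound member of the RAB3 family in exocrine cells, differed from RAB26 in its place in the sublingual gland. The lowest, median and highest RAB3D level was 8.61, 25.0 and 44.0 TPM in pancreas, 12.3, 14.2 and 16.4 TPM in submandibular gland, 7.50, 11.1 and 28.8 TPM in sublingual gland, 5.56, 9.62 and 19.99 TPM in parotid, and 1.86, 2.30 and 5.74 TPM in liver. Pancreas, submandibular gland and sublingual gland did not overlap with liver. The submandibular values varied least, with an SD of 1.45 TPM around a mean of 14.2 TPM. The library of animal 4 (14.2 TPM) lay among the others, while the median of its salivary markers lay below the liver range.

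Against liver RAB3D was higher in pancreas by 2.58 (SE 0.36, limma adjusted p = 2.47e-06, 6 of 6 animals), in submandibular gland by 2.01 (adjusted p = 6.44e-05, 6 of 6), in sublingual gland by 1.79 (adjusted p = 3.05e-04, 6 of 6) and in parotid by 1.496 (adjusted p = 0.00124, 5 of 6). These 4 calls passed after both scalings. Parotid was lower than pancreas by a difference of -1.08 (adjusted p = 0.0425, lower in 6 of 6), but that call was lost after scaling (-0.41 and -0.53), in a fit of the 12 libraries compared (adjusted p = 0.0632) and without animal 1, 2, 3, 5 or 6 (adjusted p from 0.0764 to 0.116). Without the 4 libraries, pancreas also exceeded the submandibular (difference -0.82, adjusted p = 0.0314) and sublingual gland (-1.31, adjusted p = 0.00189) in RAB3D. The log2 ratio of RAB26 to RAB3D within a library, chosen after the values were seen and not tested, averaged 2.13 in parotid, 1.61 in liver, 1.04 in submandibular gland, 1.03 in pancreas and -0.43 in sublingual gland. It was below 0 in 5 of 6 sublingual libraries.

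BHLHA15 (MIST1) is a transcription factor of serous and zymogenic acinar cells that is known to drive RAB26 and RAB3D, and its levels are set beside theirs for that reason. BHLHA15 averaged 3.55 TPM in liver and 12.9 TPM in sublingual gland, and was far more abundant in submandibular gland (71.4 TPM), parotid (85.7 TPM) and pancreas (mean 108 TPM, 6 libraries each). It was lower in sublingual gland than in pancreas (-2.68, SE 0.68, limma adjusted p = 0.00727, 5 of 6 animals), and lower than in parotid (2.85 for parotid minus sublingual gland, adjusted p = 0.00246, 6 of 6). In animal 4 BHLHA15 was at 1.55 TPM in submandibular gland and 2.57 TPM in pancreas, the libraries with the lowest RAB26 of their tissues. RAB3D in those libraries was 14.2 and 8.61 TPM. Both libraries were high in adipocyte markers and low in acinar markers. The part of BHLHA15, or of the makeup of these libraries, in the RAB26 and RAB3D values was not tested. The sublingual-minus-liver difference of BHLHA15 did not pass (1.25, adjusted p = 0.179), though sublingual gland was higher in 6 of 6 animals, with no overlap. XBP1, a regulator of the secretory pathway, ran in another order, with means of 418 TPM in pancreas, 268 TPM in sublingual gland, 219 TPM in liver, 118 TPM in submandibular gland and 80.0 TPM in parotid.

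**Figure D2:**
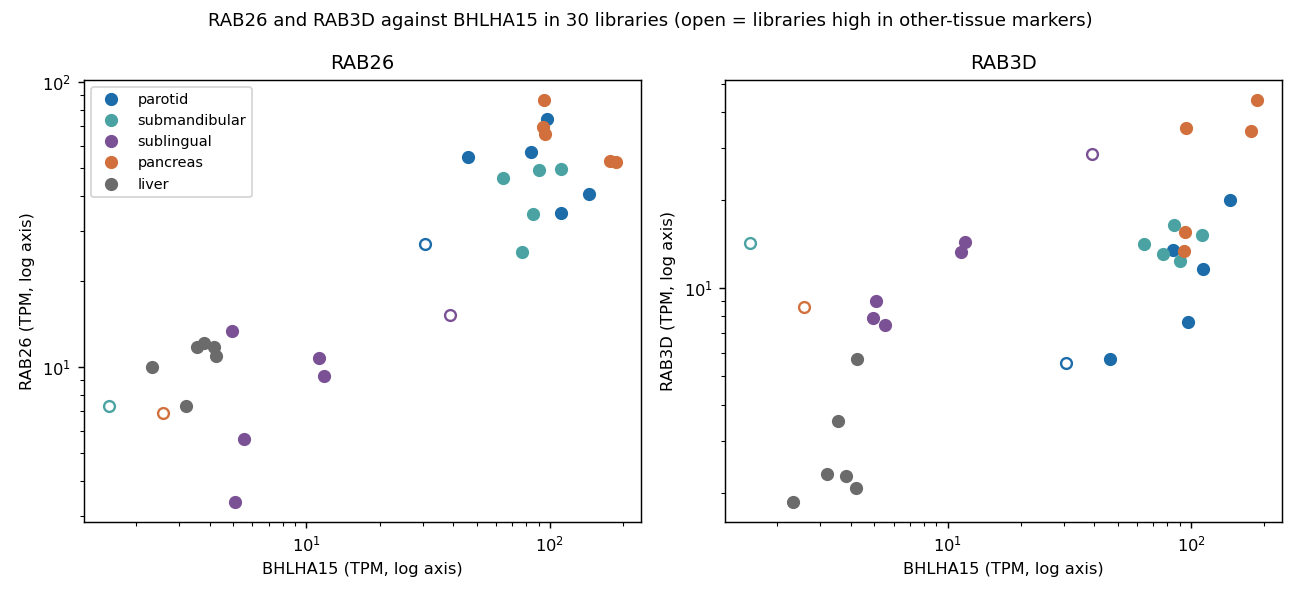
RAB26 and RAB3D (TPM, log axis) against BHLHA15 (TPM, log axis) in the 30 libraries, coloured by tissue, with open points for the 4 libraries high in fat or muscle markers. Pancreas and submandibular gland of animal 4 lie at 2.57 and 1.55 TPM of BHLHA15, beside liver, with RAB26 at 6.93 and 7.32 TPM.

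RAB27A and RAB27B are close paralogs that dock granules through SYTL and other effectors, RAB27B being the form usually linked to exocrine granules. RAB27B exceeded RAB27A in 2 of 30 libraries. The levels of RAB27A (lowest, median and highest) were 7.05, 10.9 and 18.6 TPM in liver, 4.50, 7.79 and 13.9 TPM in pancreas, 2.38, 5.48 and 8.79 TPM in sublingual gland, 3.35, 4.56 and 6.48 TPM in submandibular gland, and 1.59, 3.31 and 5.77 TPM in parotid. Liver did not overlap with parotid or with submandibular gland.

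The differences from liver passed in parotid (-1.52, SE 0.31, limma adjusted p = 2.20e-04, lower in 6 of 6 animals), submandibular gland (-1.17, adjusted p = 0.00302, 6 of 6) and sublingual gland (-1.01, adjusted p = 0.0131, 5 of 6). Parotid was lower than pancreas in RAB27A as well (-1.03, adjusted p = 0.0241, 6 of 6). After quantile normalisation none of these 4 passed, with differences of -0.34, -0.09, -0.67 and -0.52, and after trimmed-mean scaling the sublingual one remained past the threshold (-0.79, adjusted p = 0.0299). The sublingual call was also lost without animal 2 or 6 (adjusted p = 0.0726 and 0.0930) and without the sublingual libraries of animals 1 and 4 (adjusted p = 0.0905), and the parotid-pancreas call without animal 1, 2, 3, 5 or 6 (adjusted p from 0.0505 to 0.120).

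RAB27B was scarce outside the submandibular and sublingual glands. It had a lowest, median and highest level of 0.540, 4.75 and 7.72 TPM in sublingual gland, 0.158, 2.25 and 3.05 TPM in submandibular gland, 0.590, 0.841 and 1.52 TPM in parotid, 0.598, 0.808 and 1.19 TPM in pancreas, and 0.0899, 0.287 and 0.606 TPM in liver. The sublingual values spread widely, with animal 6 below every parotid value. Submandibular values were between 1.81 and 3.05 TPM except in animal 4.

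RAB27B was higher than in liver in sublingual gland (1.86, SE 0.32, limma adjusted p = 4.23e-05, 6 of 6 animals) and in submandibular gland (1.14, adjusted p = 0.00492, 6 of 6), and higher in sublingual gland than in pancreas (1.33, adjusted p = 0.00475, 5 of 6). All 3 passed after both scalings, and with 0.1 TPM added in place of 1 the RAB27B differences from liver were 3.27 and 2.26. Parotid was lower than sublingual gland (-1.27, adjusted p = 0.00371, 5 of 6), a call lost after scaling (-0.56 and -0.55). Without the sublingual libraries of animals 1 and 4, where RAB27B was 7.72 and 5.62 TPM, sublingual gland no longer passed against pancreas (0.91, adjusted p = 0.0823) or parotid (-0.85, adjusted p = 0.0501). The submandibular-minus-pancreas difference of RAB27B was 0.61 (adjusted p = 0.252) in TPM as deposited and passed after both scalings (1.12 and 1.18) and without the 4 libraries (0.82, adjusted p = 0.0274). Parotid RAB27B lay above liver in 6 of 6 animals by 0.59 (adjusted p = 0.115), and this passed after both scalings (1.06 and 1.05), with 0.1 TPM added in place of 1 (1.51), and in a fit of the 12 libraries compared (adjusted p = 0.00487).

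A ratio of 2 genes in a library depends on how much of that library other genes fill only through the constant added to each level, which weighs most on scarce genes such as RAB27B. The log2 ratio of RAB27B to RAB27A, each with 1 TPM added, averaged -0.39 in sublingual gland, -0.94 in submandibular gland, -1.14 in parotid, -2.23 in pancreas and -3.26 in liver. It was above 0 in 2 of 30 libraries, the sublingual ones of animals 1 and 4. Of 10 tissue pairs, 6 reached p = 0.03125 when the signs of the within-animal differences were flipped in all ways (exact permutation test, two-sided), the smallest value that 6 animals allow. They comprised each of the 4 other tissues against liver, and parotid and sublingual gland against pancreas, all in the same direction in 6 of 6 animals. The differences were 2.87 ± 1.09 (sublingual gland minus liver, SD of the differences), 2.31 ± 1.08 (submandibular gland), 2.11 ± 0.54 (parotid) and 1.02 ± 0.51 (pancreas), and against pancreas 1.84 ± 1.09 for sublingual gland and 1.09 ± 0.22 for parotid. With 0.1 TPM added in place of 1, the 4 differences from liver were larger, at 4.42, 3.58, 3.28 and 1.96 in the same order, and the same 6 pairs of RAB27B to RAB27A reached p = 0.03125 in the exact permutation test. Adjusted over the 30 ratio tests (3 ratios in 10 pairs) no pair passed, with 0.0852 the smallest adjusted permutation p. That outcome was largely set by the design, since 11 of the 30 tests sat at the smallest p possible and still did not pass. Permuting tissue labels without regard to animal, 7 of the 10 passed after adjustment.

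SYTL1 set the 4 other tissues apart from liver more than any other member in sublingual gland, parotid and pancreas. It encodes a RAB27-binding protein (Slp1) of granule membranes. Its lowest, median and highest level was 23.3, 28.2 and 70.3 TPM in sublingual gland, 4.98, 22.0 and 37.5 TPM in pancreas, 4.55, 11.1 and 13.6 TPM in submandibular gland, 7.96, 14.1 and 22.5 TPM in parotid, and 1.03, 1.75 and 2.29 TPM in liver. No library of another tissue overlapped with liver, and the lowest pancreas and submandibular values were those of animal 4. The 2 high sublingual values, 62.1 and 70.3 TPM against 23.3 to 30.4 TPM in the other 4, belonged to animals 1 and 4, whose sublingual libraries were low in secreted-protein markers and held the lowest sublingual RAB26 (5.61 and 3.37 TPM). The part of those libraries' makeup in the SYTL1 values was not tested.

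SYTL1 exceeded liver by 3.76 in sublingual gland (SE 0.38, limma adjusted p = 6.59e-09), by 2.99 in pancreas (adjusted p = 4.58e-07), by 2.46 in parotid (adjusted p = 6.48e-06) and by 2.01 in submandibular gland (adjusted p = 1.05e-04), each in 6 of 6 animals. These 4 passed under every alternative tried. SYTL1 was lower in parotid (-1.304, adjusted p = 0.00919) and in submandibular gland (-1.75, adjusted p = 0.00186) than in sublingual gland, with no overlap, but neither call passed after scaling (-0.31 and -0.18 for parotid, -0.90 and -0.78 for submandibular gland), and the parotid one was also lost without animal 1 (adjusted p = 0.0686). Without the sublingual libraries of animals 1 and 4 the SYTL1 differences were -0.76 in parotid (adjusted p = 0.111) and -1.21 in submandibular gland (adjusted p = 0.0259), and sublingual gland exceeded liver by 3.22 (adjusted p = 2.18e-07). Without the 4 libraries SYTL1 was lower in parotid (-0.91, adjusted p = 0.0129) and submandibular gland (-1.15, adjusted p = 0.00167) than in pancreas. With all libraries these differences were -0.53 and -0.98 and did not pass, and after scaling they ranged from -0.55 to 0.14 and did not pass.

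SYTL2, the related protein Slp2, was low in every tissue. Its range and median were 1.64, 2.90 and 3.48 TPM (lowest, median, highest) in liver, 0.873, 1.88 and 4.597 TPM in sublingual gland, 0.561, 0.774 and 1.06 TPM in parotid, 0.329, 0.614 and 7.56 TPM in pancreas, and 0.118, 0.402 and 4.27 TPM in submandibular gland. The highest pancreas and submandibular values were both from animal 4. SYTL2 was lower than in liver in parotid (-1.03, SE 0.38, limma adjusted p = 0.0225, 6 of 6 animals, no overlap) and in submandibular gland (-1.01, adjusted p = 0.0284, 5 of 6). Both calls were lost after scaling (-0.30 with either scaling in parotid, -0.55 with either in submandibular gland), and with 0.1 TPM added in place of 1 the SYTL2 differences were -1.65 and -1.93. The parotid call was lost without animal 1, 3 or 5 (adjusted p from 0.0586 to 0.0761) and the submandibular one without any single animal other than 4 (0.0523 to 0.135) and in a fit of the 12 libraries compared (0.0508). Without the 4 libraries SYTL2 in pancreas was also lower than in liver (-1.14, adjusted p = 9.54e-04). Without the sublingual libraries of animals 1 and 4, SYTL2 was lower in parotid than in sublingual gland (-1.14, adjusted p = 0.0350), where with all libraries the difference was -0.73 (adjusted p = 0.117).

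The log2 ratio of SYTL2 to SYTL1 averaged 0.42 in liver and was above 0 in all 6 liver libraries. It averaged -2.60 in submandibular gland, -3.07 in parotid, -3.26 in pancreas and -3.64 in sublingual gland, and outside liver it was above 0 in 1 library, the pancreas of animal 4 (0.52). Parotid (-3.49 ± 0.35), submandibular gland (-3.02 ± 1.45) and sublingual gland (-4.07 ± 1.33) lay below liver in 6 of 6 animals, each with an exact permutation p = 0.03125 (adjusted 0.0852). Pancreas lay below liver in 5 of 6 animals (-3.68 ± 2.05, exact permutation p = 0.0625), and without animal 4 by -4.50. Liver was thus the tissue in which the 2 genes stood at like levels.

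**Figure D3:**
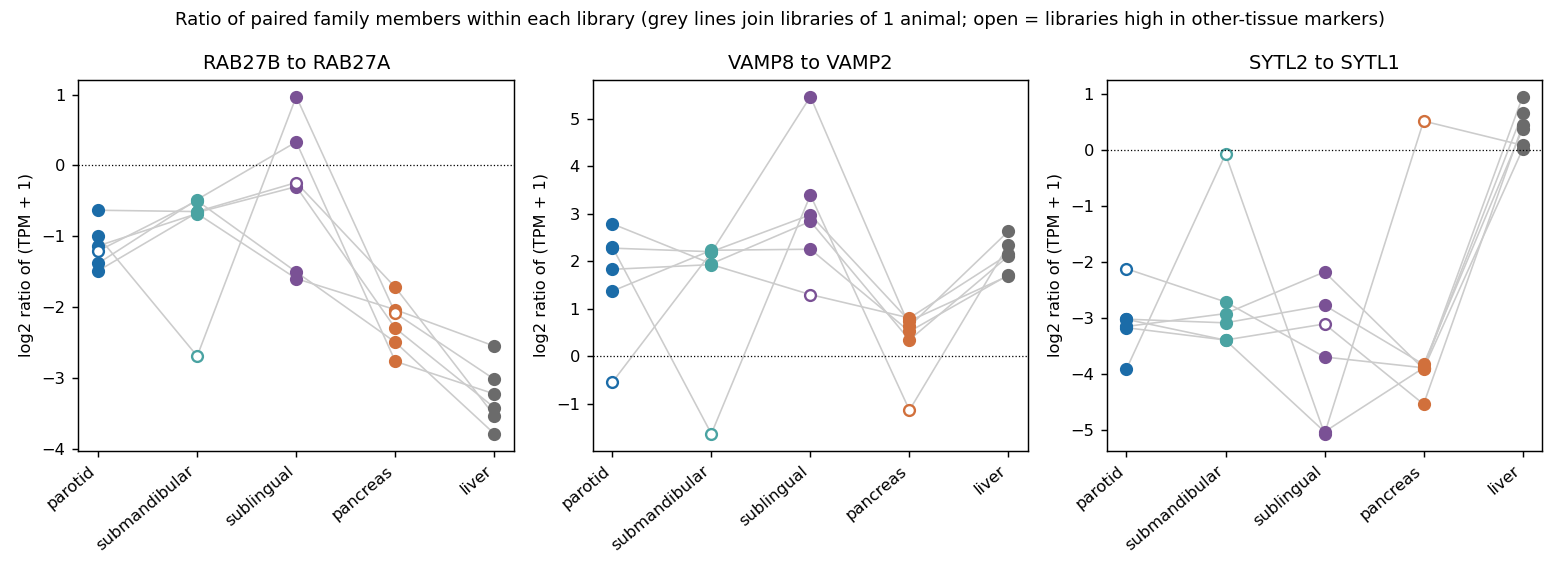
Log2 ratio of TPM + 1 between paired family members in each library, with grey lines joining the 5 tissues of an animal and open points for the 4 libraries high in fat or muscle markers. Liver is lowest for RAB27B to RAB27A (mean -3.26) and highest for SYTL2 to SYTL1 (mean 0.42), while VAMP8 to VAMP2 is lowest in pancreas (mean 0.32).

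VAMP8 had the highest median of the 10 members in every tissue, and its own level was highest in sublingual gland. It is the granule SNARE of exocrine tissues (endobrevin) and also serves the endosomal system of most cells. Its lowest, median and highest level was 299.5, 495 and 792 TPM in sublingual gland. It was 71.8, 147 and 177 TPM in submandibular gland, 90.5, 173 and 256 TPM in parotid, 144, 189 and 263 TPM in liver, and 56.4, 102 and 130 TPM in pancreas. The sublingual values did not overlap with those of any other tissue. VAMP8 took a median of 75.7% of the summed TPM of the 10 members in sublingual gland, 66.0% in liver, 54.6% in submandibular gland, 52.1% in parotid and 30.7% in pancreas.

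Sublingual VAMP8 was higher than pancreas by 2.24 (SE 0.30, limma adjusted p = 4.45e-06) and higher than liver by 1.304 (adjusted p = 0.00119), each in 6 of 6 animals. Both calls passed after both scalings and with each animal left out. Parotid (-1.52, adjusted p = 5.32e-04) and submandibular gland (-1.77, adjusted p = 2.76e-04) were lower than sublingual gland in 6 of 6 animals. After trimmed-mean scaling these were -0.48 and -0.93 and after quantile normalisation 0.02 and -0.43, none past the threshold. Pancreas was lower than liver (-0.94, adjusted p = 0.0189, 6 of 6 animals, no overlap), a call lost after scaling (-0.42 and 0.19) and without animal 2 or 5 (adjusted p = 0.0668 and 0.0514). In TPM as deposited parotid and liver were close (-0.22, adjusted p = 0.537), and after quantile normalisation parotid was higher (1.62, adjusted p = 0.0118).

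VAMP2, the synaptobrevin that also sits on zymogen granules, passed in no tissue pair in TPM as deposited. Its levels, again from lowest to median to highest, were 61.5, 68.4 and 125 TPM in pancreas, 17.0, 58.8 and 129 TPM in sublingual gland, 32.3, 46.8 and 132 TPM in parotid, 30.8, 42.5 and 58.9 TPM in liver, and 28.9, 37.8 and 224 TPM in submandibular gland. Its highest value in parotid, submandibular gland, sublingual gland and pancreas came from the 4 libraries high in fat or muscle markers. All 6 pancreas values exceeded all 6 liver values, and the difference of 0.85 (SE 0.45) had an adjusted p = 0.162. It passed without the 4 libraries (0.71, adjusted p = 0.0328) and after both scalings (1.35 and 1.85). After scaling VAMP2 was also higher than in liver in parotid (1.45 and 1.81), submandibular gland (1.19 and 1.56) and sublingual gland (0.58 and 0.83), and lower in sublingual gland than in pancreas (-0.77 and -1.02). In parotid against sublingual gland the sign turned, from -0.16 as deposited to 0.87 and 0.98, both past the threshold. In TPM as deposited but without the 4 libraries, VAMP2 was also lower in parotid (-0.84, adjusted p = 0.0320) and submandibular gland (-1.0, adjusted p = 0.00889) than in pancreas.

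The log2 ratio of VAMP8 to VAMP2 averaged 3.04 in sublingual gland, 2.11 in liver, 1.67 in parotid, 1.48 in submandibular gland and 0.32 in pancreas. It was lower in pancreas than in liver (-1.79 ± 0.91) and than in sublingual gland (2.72 ± 1.67 for sublingual gland minus pancreas) in 6 of 6 animals, each with an exact permutation p = 0.03125 (adjusted 0.0852). The other 8 pairs did not reach that p. Submandibular ratios were 1.93 to 2.23 in 5 animals and -1.63 in animal 4, and parotid ratios 1.37 to 2.79 in 5 animals and -0.54 in animal 6. Without the libraries that stood apart, the ratio in sublingual gland exceeded that in pancreas by 2.82 (4 animals), and pancreas lay below liver by -1.45 (5 animals).

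STX3, a syntaxin of apical and granule membranes, had its highest median in liver. The lowest, median and highest level was 6.48, 16.3 and 31.6 TPM in liver, 3.49, 8.99 and 21.4 TPM in pancreas, 1.72, 7.16 and 13.5 TPM in sublingual gland, 3.37, 4.86 and 5.78 TPM in parotid, and 3.02, 4.44 and 12.5 TPM in submandibular gland. Every parotid value lay below every liver value, and the highest submandibular value was that of animal 4. STX3 was lower than in liver in parotid (-1.58, SE 0.40, limma adjusted p = 0.00169, 6 of 6 animals), submandibular gland (-1.43, adjusted p = 0.00447, 5 of 6) and sublingual gland (-1.19, adjusted p = 0.0231, 6 of 6). After scaling the sublingual call passed (-0.98 and -0.82) and the others did not (-0.46 and -0.32 in parotid, -0.50 and -0.35 in submandibular gland). The sublingual call was lost without animal 1 or 6 (adjusted p = 0.0881 and 0.177), in a fit of the 12 libraries compared (0.0602) and without the sublingual libraries of animals 1 and 4 (0.0842). The pancreas-minus-liver difference of STX3 did not pass (-0.70, limma adjusted p = 0.190, lower in 4 of 6 animals).

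SNAP23, the SNAP25 relative found in non-neuronal cells, was the member with the most even medians. The lowest, median and highest values were 6.196, 15.0 and 55.9 TPM in sublingual gland, 11.6, 15.0 and 29.3 TPM in pancreas, 7.21, 14.1 and 25.4 TPM in liver, 10.2, 12.7 and 61.3 TPM in submandibular gland, and 9.17, 11.98 and 25.5 TPM in parotid. As with VAMP2, the highest value of each gland and of pancreas belonged to 1 of the 4 libraries high in fat or muscle markers. No difference of SNAP23 passed, and all 10 lay between -0.23 and 0.25. After both scalings it was higher in pancreas (0.69 and 0.91), parotid (1.19 and 1.32) and submandibular gland (1.22 and 1.41) than in liver, and higher in parotid (0.81 and 0.77, against -0.18 as deposited) and submandibular gland (0.84 and 0.86) than in sublingual gland. In TPM as deposited, the differences of pancreas, parotid and submandibular gland from liver were 0.23, 0.02 and 0.25 with all libraries. Without the 4 libraries they were -0.04, -0.14 and -0.21, and scaling was not combined with leaving these out.

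The marker values beside VAMP2 and SNAP23 covered whole lists. In the pancreas library of animal 4 the summed TPM of the 5 adipocyte markers was 17698, where the pancreas range began at 16.8, and in the submandibular library of animal 4 it was 7515, where the range began at 7.75. Endothelial markers had medians of 64.1 and 39.0 TPM in these libraries, and the next highest was 8.57 TPM, in the pancreas of animal 3. The summed muscle markers ran from 5.62 to 92898 TPM in parotid and from 27.4 to 19699 TPM in sublingual gland. No adipocyte, endothelial or muscle marker stood at 0 TPM in any library. Parotid and sublingual gland of animal 1, with muscle medians of 912 and 1133 TPM, had VAMP2 at 51.1 and 62.0 TPM, within the range of their tissues. The part of these cell types in the VAMP2 and SNAP23 values was not tested.

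**Figure D4:**
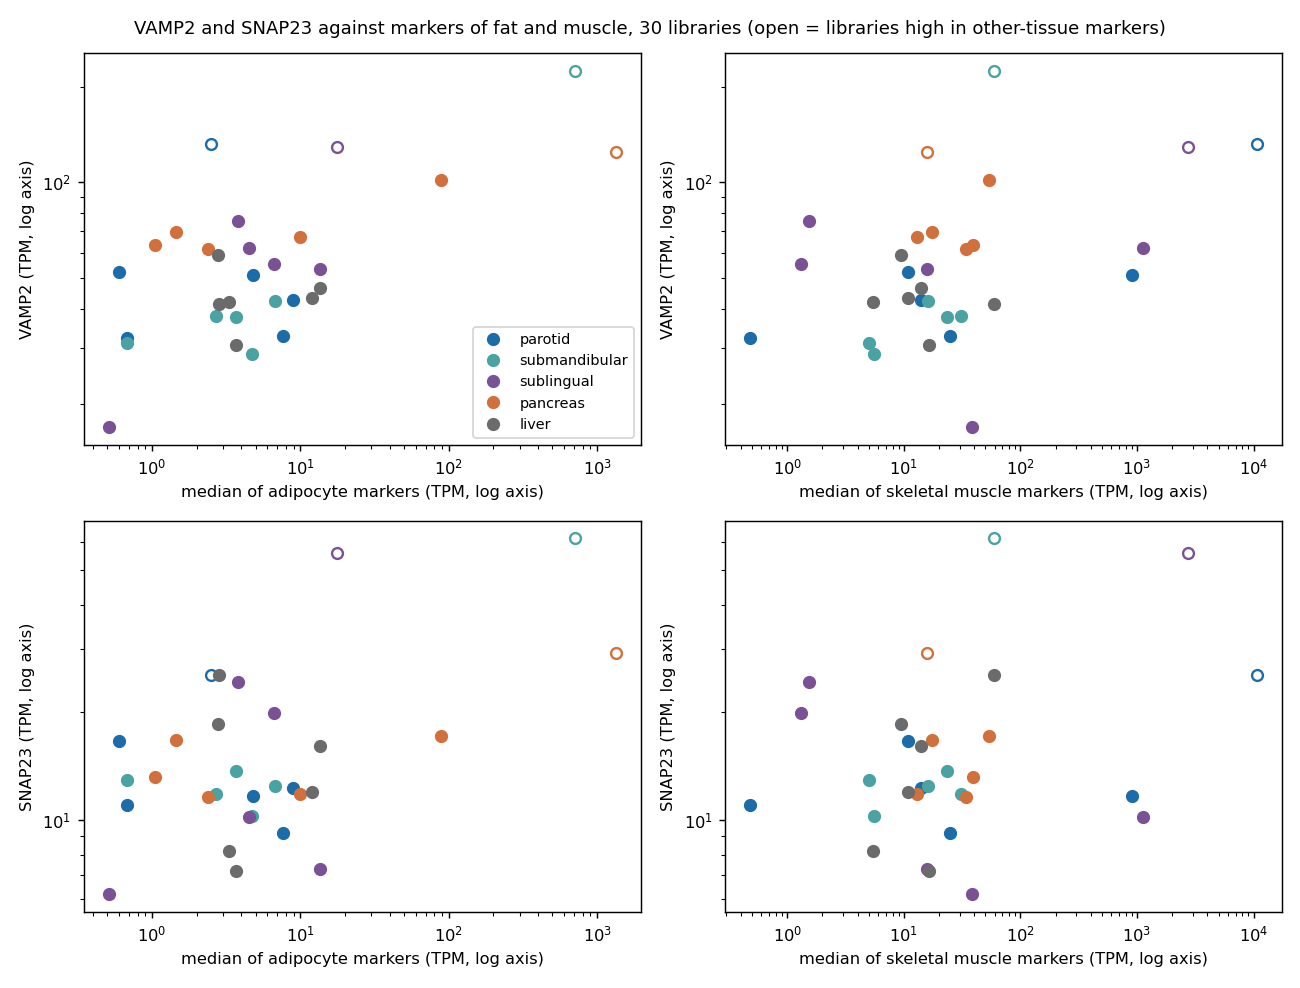
VAMP2 and SNAP23 (TPM, log axes) in the 30 libraries against the median of adipocyte markers (left) and of skeletal muscle markers (right), coloured by tissue. The open points are the 4 libraries high in these markers, with VAMP2 between 125 and 224 TPM and SNAP23 between 25.5 and 61.3 TPM.

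Counted by tissue pair, the members were called most often against liver. In submandibular gland against liver, 4 members were higher (RAB3D, RAB26, RAB27B, SYTL1) and 3 lower (RAB27A, SYTL2, STX3), where 5.68% of all genes tested were higher and 45.1% lower. Parotid against liver had 3 higher (RAB3D, RAB26, SYTL1) and 3 lower (RAB27A, SYTL2, STX3), against 4.61% and 53.4% of all genes. In sublingual gland against liver 4 were higher (RAB3D, RAB27B, SYTL1, VAMP8) and 2 lower (RAB27A, STX3), against 12.8% and 18.7%. Pancreas against liver had 3 higher (RAB3D, RAB26, SYTL1) and 1 lower (VAMP8), against 6.76% and 23.6%. The shares of members lower than in liver were below or near those of all genes, and the shares of members higher than in liver were above them. The median difference of the 10 members from liver was 0.20 in submandibular gland, 0.12 in parotid, 0.29 in sublingual gland and 0.38 in pancreas, and that of all genes -0.70, -0.84, -0.10 and -0.36. These 4 comparisons share the liver libraries, and the members were chosen with earlier results of these data known.

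Against pancreas fewer members passed. Sublingual gland had 2 higher (RAB27B, VAMP8) and 1 lower (RAB26), where 10.4% of all genes were higher and 3.51% lower. Parotid had 0 higher and 2 lower (RAB3D, RAB27A), against 2.24% and 13.6%. Submandibular gland had 0 of 10 members called in limma, with 2.25% of all genes higher and 7.46% lower, and 2 members (RAB27A and SYTL1) had an unadjusted p below 0.05. These counts moved without the 4 libraries, to 5 in sublingual gland, 6 in submandibular gland and 5 in parotid. The members then called in submandibular gland against pancreas were RAB27B, which was higher, and RAB3D, RAB27A, SYTL1, VAMP2 and STX3, which were lower. Over all genes the share called without these libraries rose to 3.59% higher and 27.3% lower in parotid, 4.43% and 32.9% in submandibular gland, and 26.9% and 6.97% in sublingual gland.

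Among the salivary glands, parotid against sublingual gland had 1 member higher (RAB26) and 3 lower (RAB27B, SYTL1, VAMP8), where 0.893% of all genes were higher and 40.6% lower. Submandibular against sublingual gland had 1 higher (RAB26) and 2 lower (SYTL1, VAMP8), against 0.753% and 27.2%. Parotid against submandibular gland had 0 members called in limma, and 0 had an unadjusted p below 0.05, with 0.133% of all genes higher and 0.214% lower. RAB26 was thus higher in a direction in which under 1% of genes passed, while the lower calls lay in the direction of most of the transcriptome.

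Scaling changed the balance of higher and lower calls. Of the 35 calls over the 100 tests (10 members in 10 pairs), 20 passed after both scalings, and all 35 passed without the 4 libraries. After trimmed-mean scaling the shares of all genes higher and lower were 21.2% and 22.6% in parotid against liver, 22.2% and 24.6% in submandibular gland against liver, 21.9% and 22.5% in sublingual gland against liver, and 16.6% and 20.1% in pancreas against liver. The members then numbered 5 higher and 0 lower in pancreas, 5 and 2 in sublingual gland, 6 and 0 in submandibular gland, and 6 and 0 in parotid. Against pancreas the scaled shares of all genes were 8.39% and 8.75% (parotid), 8.13% and 8.0% (submandibular gland) and 11.3% and 10.2% (sublingual gland), with 0, 1 and 4 members called. Against sublingual gland they were 8.23% and 9.56% (parotid) and 6.49% and 8.53% (submandibular gland), with 3 and 2 members higher and 0 lower. After quantile normalisation the shares of all genes higher and lower than in liver were 26.1% and 20.6% (parotid), 27.3% and 21.5% (submandibular gland), 24.5% and 21.3% (sublingual gland) and 21.9% and 17.9% (pancreas), with 7 and 0, 6 and 0, 5 and 1, and 5 and 0 members. Against pancreas they were 9.15% and 9.48% (parotid), 9.41% and 9.14% (submandibular gland) and 10.7% and 12.5% (sublingual gland), and against sublingual gland 9.54% and 8.43% (parotid) and 8.85% and 7.61% (submandibular gland). RAB26 passed in each of its 6 pairs under both scalings, and SYTL1 and RAB3D in each of their 4 pairs with liver.

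**Figure D5:**
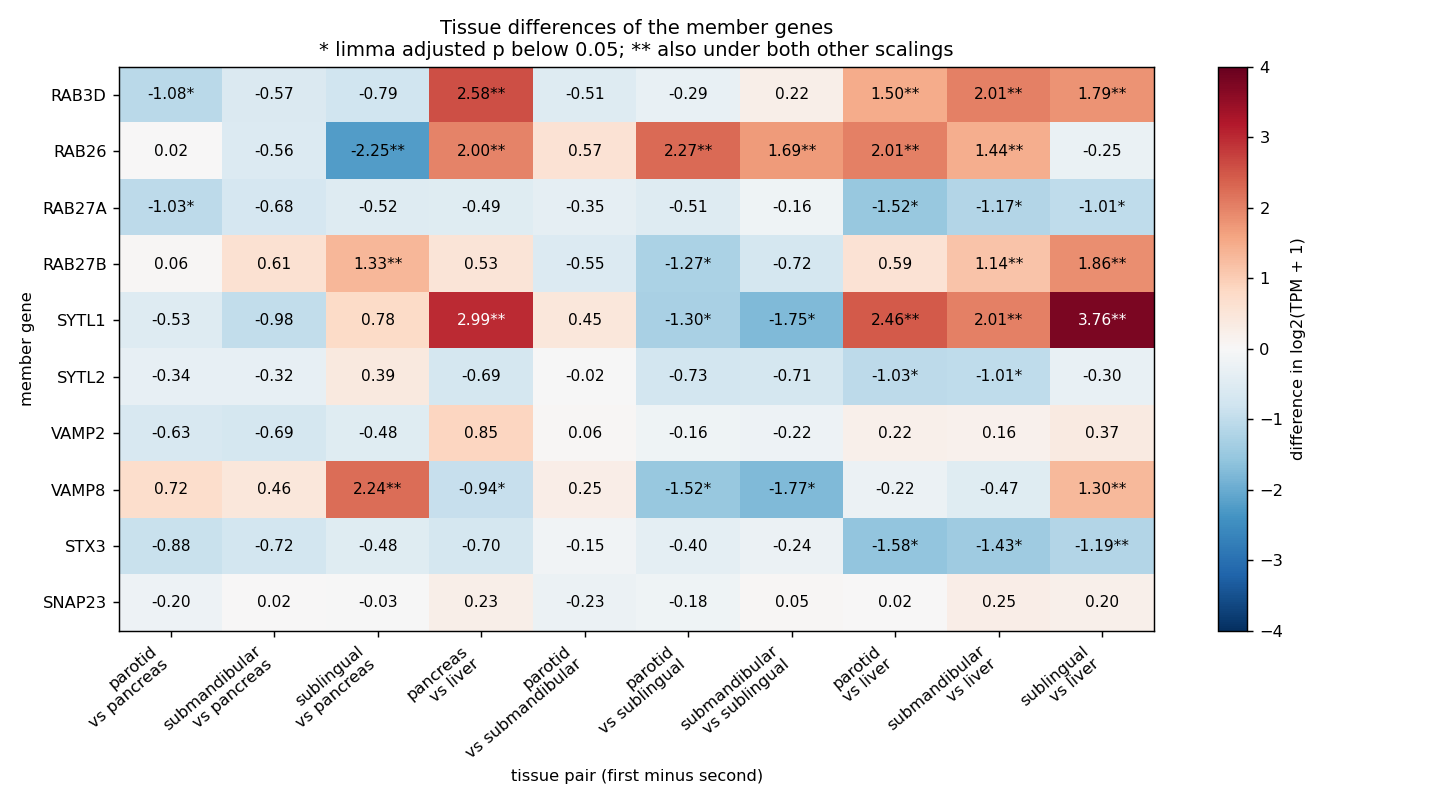
Difference in log2(TPM + 1) of each of the 10 genes in each of the 10 tissue pairs, first tissue minus second, with red for higher in the first. One asterisk marks a limma adjusted p below 0.05, and a doubled one a call that also passed after both scalings. RAB26 has doubled asterisks in 6 pairs and SYTL1 in its 4 pairs with liver.

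The wider exocytosis machinery was taken from 7 lists with 123 genes, of which 103 passed the filter on low values: other RAB GTPases of the secretory route, their regulators and effectors, other SNAREs, SNARE regulators, the exocyst tethering complex, and BHLHA15 with XBP1. The share of all genes called in each pair is given above with the members. Against pancreas, 7 of the 103 genes were higher and 6 lower in sublingual gland, 2 and 9 in submandibular gland, and 2 and 11 in parotid, and after trimmed-mean scaling 8 and 13, 11 and 10, and 6 and 11. Set against liver, the pancreas had 7 higher and 15 lower, and 22 and 10 after scaling. Parotid against sublingual gland had 1 higher and 33 lower of 103, where 40.6% of all genes were lower, and submandibular against sublingual gland 2 and 19, where 27.2% were lower. After scaling these became 7 and 5, and 11 and 2, and parotid against submandibular gland had 0 and 0 before and after. Against liver there were 10 higher and 10 lower in sublingual gland, 7 and 26 in submandibular gland, and 6 and 41 in parotid, where 18.7%, 45.1% and 53.4% of all genes were lower. After trimmed-mean scaling the counts against liver were 20 and 12, 37 and 13, and 24 and 14, so the direction of these lists depended on the scaling.

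By list, the RAB GTPases, counted with the RAB11-binding protein RAB11FIP1, had 0 of 19 called in parotid or submandibular gland against pancreas. In sublingual gland 2 of the list were higher, where 10.4% of all genes were higher. Parotid against liver had 1 of these GTPases higher and 9 lower, and 3 and 4 after trimmed-mean scaling. Of 15 RAB regulators (such as exchange factors and prenylation factors), 0 were higher and 7 lower in parotid than in liver, against 53.4% of all genes lower, and after scaling 3 and 3. Of 12 effectors, 2 were higher and 2 lower than in pancreas in each of the 3 glands, and after scaling 3 and 2 in parotid, 5 and 2 in submandibular gland, and 2 and 2 in sublingual gland. The 25 SNAREs had 1 higher and 11 lower in parotid against liver, again beside 53.4% of all genes, and 6 and 3 after scaling. Of 20 SNARE regulators, 5 were lower in parotid than in pancreas, where 13.6% of all genes were lower, and 5 after scaling. In submandibular gland 4 regulators were lower, where 7.46% of all genes were, and 4 after scaling. The 10 exocyst genes, counted with the EXOC3 relatives EXOC3L1 and EXOC3L4, had 0 higher and 5 lower in parotid against liver, and 3 and 2 after scaling. Both relatives were among the 5 lower.

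RPH3AL (Noc2), an effector that binds RAB3 and RAB27 on granules, was lower in each gland than in pancreas, and in parotid and submandibular gland it had the largest fall of the wider genes. Its mean was 18.2 TPM in pancreas, 3.43 TPM in sublingual gland, 2.93 TPM in submandibular gland and 1.14 TPM in parotid. The differences were -3.15 in parotid (SE 0.35, limma adjusted p = 5.05e-07), -2.71 in submandibular gland (adjusted p = 4.63e-06) and -2.21 in sublingual gland (adjusted p = 4.55e-05), in 6 of 6 animals each and with no overlap. After trimmed-mean scaling they were -2.69, -2.43 and -2.47. RPH3AL did not differ past the threshold between pancreas and liver (-0.09, adjusted p = 0.876). DOC2B, a calcium sensor of fusion, was lower than in pancreas in parotid (-2.30, adjusted p = 1.40e-04) and submandibular gland (-1.97, adjusted p = 0.00102), and it was lower in pancreas than in liver (-1.34, adjusted p = 0.0102). Pancreas libraries also hold islets, and 7 islet markers summed to 450 to 132640 TPM there. Their highest sum was 961 TPM in sublingual gland, 501 TPM in submandibular gland, 359 TPM in parotid and 434 TPM in liver. The part of islets in the RPH3AL and DOC2B values was not tested.

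The effectors called higher than in pancreas in parotid or submandibular gland were MLPH, SYTL3 and MYRIP. MLPH (melanophilin, which links RAB27 to myosin Va) was higher in parotid than in pancreas (1.46, limma adjusted p = 0.0359), with means of 22.2 and 8.0 TPM. MYRIP, which links RAB27 to other myosins, was higher in submandibular gland than in pancreas (1.12, adjusted p = 0.00298) and than in sublingual gland (1.16, adjusted p = 0.00174). SYTL3 was higher than in pancreas in parotid (0.83, adjusted p = 0.0332) and submandibular gland (0.86, adjusted p = 0.0353), at means of 1.56 and 1.58 TPM against 0.491 TPM. Each of these also passed after both scalings.

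In sublingual gland RAB25, an epithelial recycling GTPase, had a mean of 90.5 TPM and was higher than in pancreas (2.80, SE 0.45, limma adjusted p = 5.55e-05, 6 of 6 animals). It was lower in submandibular than in sublingual gland (-2.32, adjusted p = 8.36e-04), a call lost after scaling (-1.42 and -1.18), and higher in pancreas than in liver (1.70, adjusted p = 0.00487). CPLX3, a complexin that clamps SNARE assembly, was higher in sublingual gland than in pancreas (2.48, adjusted p = 9.79e-04, 6 of 6) and lower in parotid than in sublingual gland (-2.48, adjusted p = 7.55e-04). RAB11A, the recycling endosome GTPase, was lower in parotid than in sublingual gland (-2.36, adjusted p = 1.88e-04), at 15.2 against 108 TPM. VAMP5, a SNARE best known from muscle, was lower in submandibular than in sublingual gland (-2.04, adjusted p = 0.0279) in 5 of 6 animals. Its means were 50.9 and 57.1 TPM, and the call passed after neither scaling (-1.27 and -1.18) but did without the 4 libraries (-2.75, adjusted p = 5.31e-07). RAB43 (-2.44, adjusted p = 1.83e-05) and EXOC3L4 (-2.24, adjusted p = 2.67e-08), a relative of the exocyst subunit EXOC3, were the wider genes with the largest falls in pancreas against liver, and BHLHA15 had the largest rise (3.93, adjusted p = 5.31e-05, 5 of 6 animals).

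Genes whose pattern was most like that of each member were found among 4388 named genes with a mean of at least 10 TPM, by the root-mean-square difference of log2(TPM + 1), each centred on its own mean over the 30 libraries. A value near 0 means parallel levels, and the scale of each member is its own SD over the libraries. RAB26 (SD 1.26) was nearest to PAIP2B (0.80), CLDN10 (0.84) and SLC38A5 (0.89). RAB3D (SD 1.05) was nearest to TPD52 (0.61), SRPRB (0.62) and PLEKHB1 (0.65). These are large fractions of the members' own spread, so no gene ran close beside either. The same holds for RAB27A, RAB27B, VAMP8 and STX3 below.

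RAB27A (SD 0.70) was nearest to CANX (0.38), MGAT2 (0.39) and GNPNAT1 (0.40), which encode a chaperone and enzymes of protein glycosylation. RAB27B (SD 0.83) was nearest to PROM2 (0.60), LRATD2 (0.60) and DDR1 (0.61). SYTL1 (SD 1.41) was nearest to ST14 (0.55), PRSS22 (0.66) and SPINT1 (0.69). ST14 encodes the epithelial serine protease matriptase and SPINT1 an inhibitor of it. SYTL2 (SD 0.75) was nearest to CRELD1 (0.32), CCNH (0.35) and SLC35C2 (0.36).

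VAMP8 (SD 0.88) was near TRAF4 (0.53) and NUDT14 (0.67). VAMP2 (SD 0.76) was nearest to SLC39A13 (0.33), SLC44A2 (0.34) and DNM2 (0.34), the last encoding the widely expressed dynamin. STX3 (SD 0.89) was nearest to JOSD1 (0.48), BSDC1 (0.52) and GATAD1 (0.53). SNAP23 (SD 0.73) was nearest to RBMX (0.34), TSPYL1 (0.34) and COPA (0.37), of which COPA encodes a coatomer subunit. The 30 libraries share animals and tissues, and all values share the fixed total of each library.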

How the data were processed

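Gene expression was measured in 30 libraries, 5 tissues of 6 animals, with paired reads from an Illumina HiSeq after column extraction of RNA from frozen sections, per the labels' protocols. The authors deposited 1 table of TPM values, which the submitters' processing notes and the table's name connect with kallisto. The transcriptome, the genome build and the summing of transcripts to genes are not given in the sources used here. Each column sums to the same total, so depth is unknown and no interval or floor that needs it is given; a library listed 8477 to 13515 genes at 1 TPM or more. No column was left unused (0).

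Differences in log2(TPM + 1) were analysed in R 4.3.3 with limma 3.58.1, two-sided and with a mean-variance trend, in a fit of tissue and animal to all 30 libraries. Such fold changes understate the change of low genes. The filter kept 13550 of 21292 genes, and the fit was tested on simulated data. The block is animal, since per the labels each animal gave every tissue. Libraries of an animal deviated together only in part (mean correlation 0.161, against -0.0186 between animals), which was checked over 13550 genes. Ratios were tested with an exact sign-flip permutation over 64 patterns. Alternatives were no block, fits of 12 libraries, 2 scalings (the trimmed-mean one trims 30% of log ratios and 5% of levels at each end), a pseudocount of 0.1, other filters, and libraries or animals left out.

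The members, the gene lists and the libraries left out were chosen with earlier results of these data known. Named outside the members are the 2 most raised and the 2 most lowered genes called among the wider lists, for pairs of glands, for each gland with pancreas and for pancreas with liver, then the 3 nearest genes of each member, BHLHA15 and XBP1. Of the nearest genes, 1 is not reported here. Symbols are those of the table. No count-based test was used.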

Additional observations from a re-analysis of the deposited data

Results flagged for a closer look

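Gaps between levels were measured on the log2(TPM + 1) scale and gaps between ratios on the log2 scale, while levels are listed below in TPM. A value was set aside for a closer look when its gap to the nearest value in its tissue exceeded 0.625 of the whole range. This was applied to 65 sets of 6 libraries (10 members and 3 ratios in 5 tissues), where chance gives about 1 in 20, or 3.25, and it picked out 16, of which 14 came from animal 4 (8 in submandibular gland and 6 in pancreas).

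In the submandibular library of animal 4, RAB26 (7.32 TPM), RAB27B (0.158 TPM) and VAMP8 (71.8 TPM) were lowest, and VAMP2 (224 TPM) and SNAP23 (61.3 TPM) highest. The log2 ratios there were -2.69 for RAB27B to RAB27A, -1.63 for VAMP8 to VAMP2 and -0.074 for SYTL2 to SYTL1. In the pancreas library of animal 4, RAB26 (6.93 TPM), SYTL1 (4.98 TPM) and VAMP8 (56.4 TPM) were lowest and SYTL2 (7.56 TPM) highest, with log2 ratios of -1.13 for VAMP8 to VAMP2 and 0.52 for SYTL2 to SYTL1. RAB3D and RAB27A were not set aside in either library. The other 2 values were VAMP2 in the parotid of animal 6 (132 TPM) and RAB26 in the liver of animal 5 (7.31 TPM). The marker levels of the 3 libraries other than that liver are given above, and their part in these values was not tested.

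RAB26 in sublingual gland minus liver lay on opposite sides of 0 in the 2 sexes. The mean log2 difference was -0.69 in the 4 females and 0.62 in the 2 males, all animals of a sex on one side. The males were at 0.97 (animal 5) and 0.27 (animal 6). Animal 5 gave the low liver value set aside above and the sublingual library high in muscle markers. The difference of -1.31 was not tested, and it was the single such case in 100 gene and tissue pairs. With 4 and 2 animals such a split can arise by chance among 100 pairs.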

How the results depend on the processing

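The number of members called in parotid against pancreas was 2. It was 1 with only the 12 libraries compared, 0 with either scaling, 4 without the pancreas and submandibular libraries of animal 4 and the parotid of animal 6, 5 when the sublingual library of animal 5 was also left out, and 0 to 3 with single animals left out. In submandibular gland against pancreas it was 0, and 1 with the 12 libraries or either scaling, 3, 5 and 6 as 2, 3 or 4 of these libraries were left out, and 0 to 3 with single animals left out (3 without animal 4). In sublingual gland against pancreas it was 3, and 6 after quantile normalisation and 5 without 2, 3 or 4 libraries. The shares of all genes called in these pairs, given above, also rose in both directions without the 4 libraries. The rise in counts was thus not confined to the members. These shares are not given for the fits of 12 libraries, for 2 or 3 libraries left out, or for single animals left out. The total called in each of the other 7 pairs stayed within 1.5 times under every alternative, but members and directions changed in some after scaling. Parotid against liver went from 3 higher and 3 lower to 6 and 0 (trimmed-mean) and 7 and 0 (quantile). Of the calls against sublingual gland, 1 of 4 in parotid and 1 of 3 in submandibular gland passed after both scalings. Without the replicate block the 35 member calls were the same 35. For the ratios, permutation without the block passed 7, 2 and 4 of 10 pairs for RAB27B to RAB27A, VAMP8 to VAMP2 and SYTL2 to SYTL1, against 0 paired. Turned signs are listed here only for differences that passed before or after the scaling in question. Signs turned after quantile normalisation for VAMP8 in pancreas against liver (0.19), parotid against sublingual gland (0.015) and parotid against liver (1.62). After quantile normalisation they also turned for VAMP2 in submandibular against sublingual gland (0.74). They turned for VAMP2 (0.87 and 0.98) and SNAP23 (0.81 and 0.77) in parotid against sublingual gland after both scalings. The cause was not tested. Of the 35 calls, 25 passed with every single animal left out. Without the sublingual libraries of animals 1 and 4, the counts stayed within 1.5 times, and the calls lost are given with RAB27A, RAB27B, SYTL1 and STX3. The filter of 5 TPM dropped RAB27B and SYTL2. Depth is unknown, so levels below 1 TPM rest on an unknown number of reads.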
